A study of Homo sapiens with 6 samples.

Results

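The genes described here are 60 named genes of the long arm of chromosome 22, spread from PI4KA at base 20707691 to DNAL4 at base 38794198 of the GRCh38 build. They were chosen by symbol as residents of that stretch, with the fold changes of the same data already known, among the 26485 genes of the authors' deposited table. Of the 60, the authors' deposited table gives 59 an adjusted p-value, and CSNK1E, which encodes casein kinase 1 epsilon, was listed there at a mean count of 0. GENCODE 29 placed all 60 on chromosome 22.

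RNA was sequenced from PC9, a human lung adenocarcinoma line that depends on a mutant, active EGFR. The 3 parental libraries came from untreated PC9 cells. The 3 resistant libraries came from PC9 cells grown under dacomitinib, a covalent inhibitor of EGFR-family kinases, raised from 1 pM to 100 nM across 6 months, and are labelled as treated with 100 nM. Resistance and exposure to the drug therefore cannot be told apart, and whether the resistant cells were 1 clone or a mixed population is not given in the sources used here. All groups were the same cell line, and a lower value in this bulk RNA does not separate fewer cells that express a gene from less RNA per cell.

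The human chromosome 22 carries its genes on the long arm. Near the centromere lie the segments of the 22q11.2 deletion syndrome, with CRKL and LZTR1 in them, and further out lie the tumour suppressor genes SMARCB1 and NF2, which are often lost in rhabdoid tumours, schwannomas and meningiomas. In cancer cells, gain or loss of a stretch of a chromosome is known to move the transcripts of many resident genes together by modest amounts. DNA copy number was not analysed here, so its part in what follows was not tested.

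The libraries counted the 3′ ends of polyadenylated RNA, so a normalized count does not scale with transcript length. The mean normalized counts in the authors' deposited table summed to 3.97e+06 per library, of which the 60 genes held 1.14%. The library size factors implied by the lowest counts ran from 0.539 to 1.08 on the parental side and from 1.06 to 1.37 on the resistant side, so 1 parental library was sequenced to a lower depth than the other 5. Of 7 epithelial and lung markers, NKX2-1 was listed at 0 and the other 6 were tested, and KRT7 (0.68 ± 0.06) and EPCAM (0.31 ± 0.05) rose while KRT8 (-0.65 ± 0.07) and KRT18 (-0.61 ± 0.07) fell, in the authors' deposited table. The summed counts of the 7 were 56361 in parental and 58966 in resistant cells, derived from the authors' deposited table. Of 5 fibroblast markers, COL1A2, DCN and LUM were listed at 0, while PDGFRB rose from a fitted 2.27 to 651 and COL1A1 from 1.52 to 26.2, in the authors' deposited table. Of 4 leukocyte markers, PTPRC and CD3E were listed at 0, LST1 averaged 0.313 counts and CD68 (0.04 ± 0.15) did not pass, at 164 and 169, going by the authors' deposited table. Of 3 endothelial markers, VWF was listed at 0, PECAM1 averaged 1.26 counts and CDH5 fell from 32.7 to 14.2 (-1.20 ± 0.38), in the authors' deposited table. The part of other cells in the changes below was not tested.

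Most of the chromosome 22 genes had values below 0 in the resistant cells, and the called falls were mostly modest. Of the 59 tested, 26 fell, 5 rose and 28 did not pass an adjusted p of 0.05 in the authors' deposited table. Over all tested genes, the authors' deposited table called 14.8% lower and 13.3% higher. Because the genes were chosen with these fold changes known, the counts describe the choice and carry no test. The median log2 fold change of resistant over parental cells was -0.38 in the authors' deposited table, which is 23.1% less transcript, against a median of 0.02 over all 13494 tested genes. Below 0 stood 47 of the 59 in the authors' deposited table, against 48.4% of all tested genes and 53.0% of those with a mean count of 50 or more. The middle of the members' distribution, from the lower to the upper quartile, ran from -0.61 to -0.12. With a fold of at least 1.5 also required, 14 fell and 0 rose, against 8.61% lower and 8.77% higher over all tested genes. Judged against a t distribution with 4 degrees of freedom in place of the normal one, 9 fell and 1 rose, against 3.88% lower and 2.81% higher over all tested genes. The members that kept their call under that distribution were TST, AP1B1, EIF3D, PES1, TOMM22, TMEM184B, NOL12, MIF and CDC42EP1, which fell, and MYH9, which rose, and every other call of a member named below was lost under it.

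The genes that fell did so by between 15.4% (DDT) and 61.6% (TST), as computed from the authors' deposited table. For 17 of the 26 the fall lay between 25% and 40%, and for only TST and TPST2 was it larger than 2-fold. The 5 that rose did so by 32.9% to 39.8%. Calls were more frequent among the well-counted members, but a high count did not by itself bring a call. Of the 48 members at a mean normalized count of 50 or more, 25 fell and 5 rose in the authors' deposited table. Among all genes of that depth, 23.3% were lower and 18.2% higher. The other 18 of the 48 missed the threshold, among them TXN2 (mean count 1007, -0.23 ± 0.10) and YWHAH (469, -0.05 ± 0.10). Of the 11 tested members below a mean count of 50, only TPST2 was called, and it fell. Among all tested genes of that depth, 5.75% were lower and 8.24% higher. The median standard error (SE) of the log2 fold changes of these 11 in the authors' deposited table was 0.34, against 0.11 for the 48. A change of the size seen in the other members was thus not detectable at this depth for genes such as HPS4, CCDC117 or MTMR3.

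**Figure D1:**
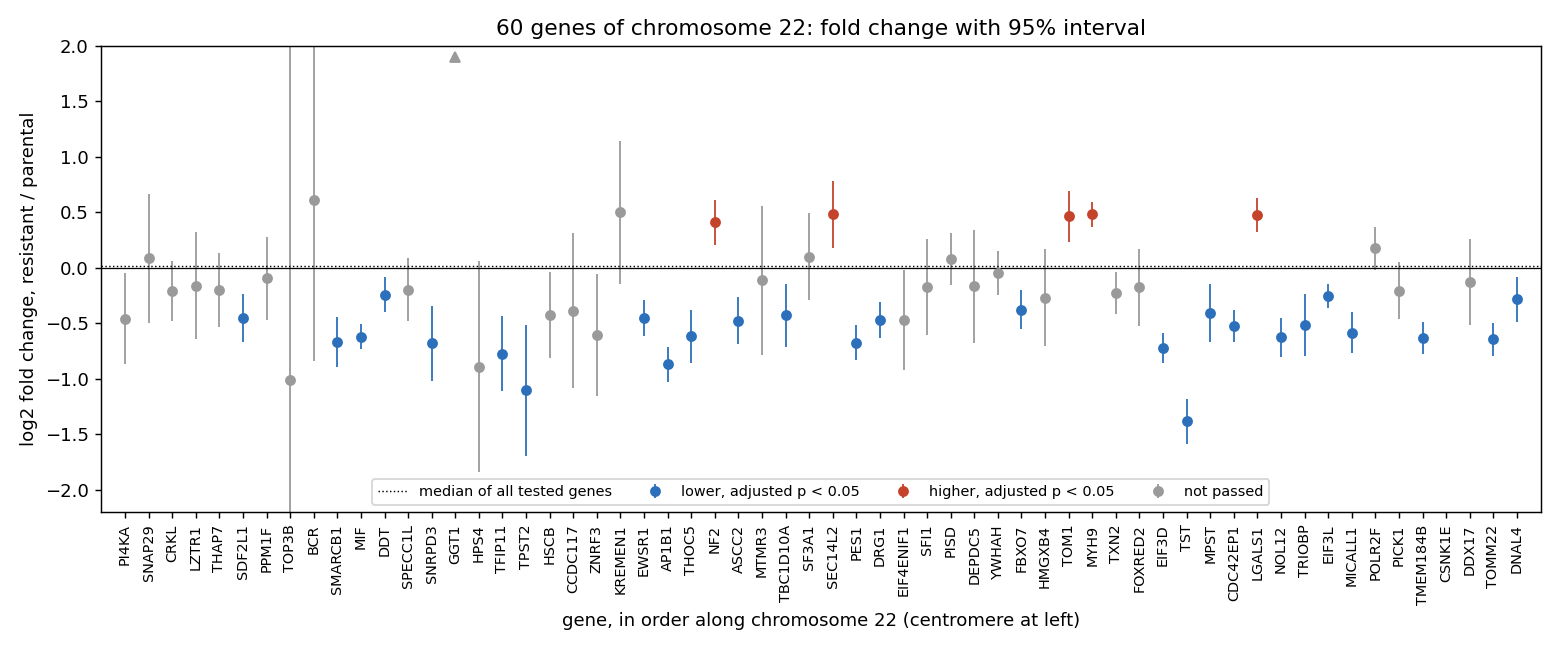
Log2 fold change of resistant over parental cells for the 60 genes in their order along chromosome 22, with 95% normal intervals from the authors' standard errors; blue genes fell, red genes rose and grey genes did not pass. The blue genes lie between -0.24 and -1.38, and the 5 red genes stand between 0.41 and 0.48. GGT1, at 2.56, lies beyond the axis and is drawn as a triangle, and CSNK1E, with no reads, has no point.

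Along the chromosome, values lay mostly below 0 from the start of the listed stretch and on past its far end. Before 22 Mb, 16 of all 20 tested genes of the stretch lay below 0, at a median of -0.21, against 48.4% of all tested genes. Only 2 of the 20, or 10%, were called lower there, against 14.8% of all tested genes. The 8 members before 22 Mb (PI4KA, SNAP29, CRKL, LZTR1, THAP7, SDF2L1, PPM1F and TOP3B) had a median of -0.21 in the authors' deposited table, and of them SDF2L1 alone (12.5%) fell. From 22 Mb on, 25 of 51 tested members fell and 5 rose by the authors' deposited table, at a median of -0.39. This division at 22 Mb was chosen after the values were seen. Just outside the centromere end, TMEM191A (0.27 ± 0.24), MED15 (0.39 ± 0.18) and KLHL22 (0.23 ± 0.23) missed the threshold in the authors' deposited table. Just inside that end, PI4KA (-0.46 ± 0.21) and SNAP29 (0.08 ± 0.30) did not pass either in the authors' deposited table. At the far end, TOMM22 (-0.64 ± 0.08) and DNAL4 (-0.29 ± 0.10) fell inside the bound, and NPTXR (-0.95 ± 0.28) and CBX6 (-0.24 ± 0.09) fell beyond it, while APOBEC3B (-0.19 ± 0.61) did not pass, going by the authors' deposited table.

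All placed genes of the chromosome gave the same outline. In the 34 tested genes before PI4KA, 9 rose and 2 fell by the authors' deposited table, at a median of 0.18. Bins of 2 Mb were also taken, of which that from 20 to 22 Mb holds genes before PI4KA too. The median was 0.03 over 17 genes from 18 to 20 Mb, -0.13 over 32 genes from 20 to 22 Mb and -0.64 over 14 genes from 22 to 24 Mb, in the authors' deposited table. It stayed below 0 in each bin up to 50 Mb, where it ran from -0.80 (8 genes) to -0.20 (8 genes), and was 0.03 over the 24 genes from 50 to 52 Mb, in the authors' deposited table. Between DNAL4 and 50 Mb, 42 of 97 tested genes fell and 3 rose by the authors' deposited table, at a median of -0.43. The 105 tested genes of the listed stretch that are not among the 60 had a median of -0.43, and the authors' deposited table called 37 of them lower and 2 higher. Chromosome 22 as a whole had a median of -0.32 over 319 tested genes in the authors' deposited table. The medians of the other 22 chromosomes ran from -0.31 to 0.17, and the lowest of these was chromosome 11, so a lowered chromosome median was not limited to chromosome 22. The share called lower was 36.1% on chromosome 11 and 34.5% on chromosome 22.

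**Figure D2:**
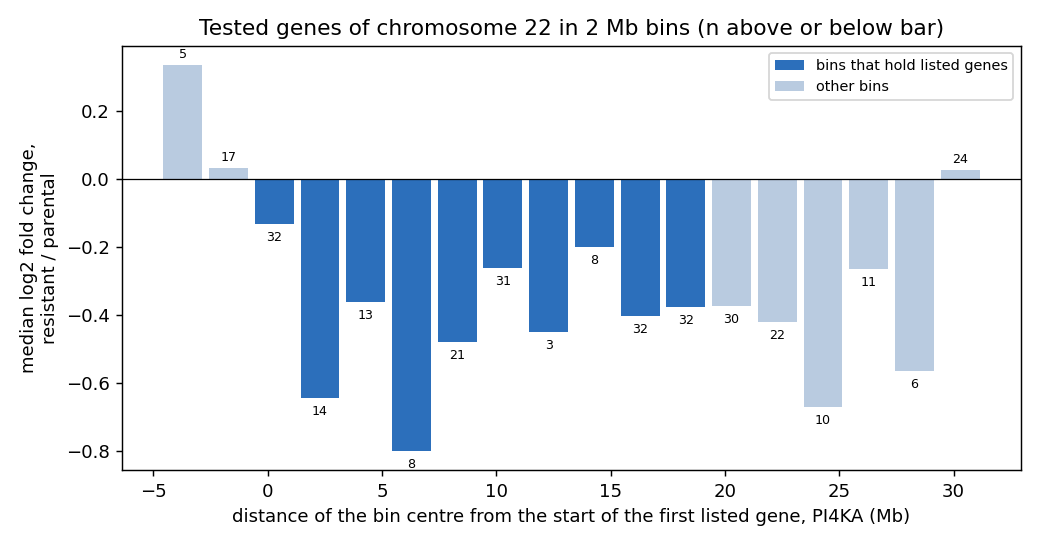
Median log2 fold change of all tested genes of chromosome 22 in 2 Mb bins, against the distance of the bin from the start of PI4KA; numbers give the genes per bin, and dark bars hold listed genes. Medians lie at or above 0.03 in the bins before PI4KA and in the last bin, and between -0.80 and -0.13 in the bins from 20 to 50 Mb.

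The best-measured members show what the values look like. MIF, a cytokine-like tautomerase that counters the action of glucocorticoids, had the highest count of the 60 and held 25.3% of their summed counts. Its fitted mean went from 13871 in the parental to 9027 in the resistant group, a log2 fold change of -0.62 ± 0.06 (SE, adjusted p = 4.76e-27), in the authors' deposited table. DDT, its paralog and neighbour, went from 1212 to 1025, a smaller fall of -0.24 ± 0.08 (adjusted p = 0.0128) in the authors' deposited table. For these neighbours the 95% intervals did not overlap, reaching from -0.73 to -0.51 for MIF and from -0.40 to -0.08 for DDT.

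A second pair of neighbouring paralogs, TST and MPST, start head to head and overlap at their starts. TST encodes rhodanese, a mitochondrial enzyme that moves sulfur from thiosulfate, and MPST encodes the enzyme that makes hydrogen sulfide from mercaptopyruvate. TST had the largest fall among the well-counted members, from a fitted 948 to 364, or -1.38 ± 0.10 (adjusted p = 1.80e-38), in the authors' deposited table. MPST went from 396 to 298, or -0.41 ± 0.13 (adjusted p = 0.00945), in the authors' deposited table. Printed next, the first 60 coding bases of TST and MPST, from GENCODE 29 transcripts on GRCh38, show how far apart the copies are, with capitals at each base that differs from the neighbour.

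TST, chr22:37018673-37018732, reverse strand: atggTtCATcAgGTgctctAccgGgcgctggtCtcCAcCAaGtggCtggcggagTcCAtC

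MPST, chr22:37024216-37024275, forward strand: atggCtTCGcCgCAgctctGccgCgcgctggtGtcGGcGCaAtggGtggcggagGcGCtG

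In these stretches 20 of 60 bases differ between TST and MPST. Over their whole aligned coding sequences, identity was 66.8%. MIF overlaps the antisense gene MIF-AS1 and DDT overlaps DDTL, which was listed at 0 in the authors' deposited table. Exons of 41 of the 60 genes overlap those of another annotated gene, 28 of them on the opposite strand, and whether counting used strand is not given in the sources used here. Counts of such genes are uncertain to that extent. CSNK1E shares exons with the read-through gene TPTEP2-CSNK1E on its own strand, so its listing at 0 is not read as absence.

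The 5 members of translation and ribosome assembly all fell. EIF3D, a cap-binding subunit of the initiation factor eIF3, had a fitted mean of 3503 in parental and 2125 in resistant cells, or -0.72 ± 0.07 (adjusted p = 4.61e-24), in the authors' deposited table. EIF3L, another subunit of the same complex, moved less, from 4741 to 3976, or -0.25 ± 0.06 (adjusted p = 5.09e-05), in the authors' deposited table. PES1, part of the PeBoW complex that matures the large ribosomal subunit, went from 1157 to 724, or -0.68 ± 0.08, in the authors' deposited table. The nucleolar protein gene NOL12 (-0.63 ± 0.09) and the GTPase gene DRG1 (-0.47 ± 0.08) fell beside them in the authors' deposited table. The median of these 5 was -0.63 in the authors' deposited table.

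Among the 7 genes of RNA splicing, export and binding, 4 fell and none rose by the authors' deposited table, at a median of -0.47, and all 4 calls were lost under the t distribution with 4 degrees of freedom. TFIP11, which takes part in taking the spliceosome apart, went from 159 to 92.9, or -0.78 ± 0.17 (adjusted p = 5.56e-05), in the authors' deposited table. SNRPD3, a protein of the Sm ring of spliceosomal particles, went from 142 to 88.4, or -0.68 ± 0.17 (adjusted p = 0.000595), in the authors' deposited table. THOC5 of the mRNA export complex THO (-0.62 ± 0.12) and EWSR1, the RNA-binding protein fused in Ewing sarcoma (-0.45 ± 0.08), also fell in the authors' deposited table. SF3A1 of the U2 particle (0.10 ± 0.20), the helicase gene DDX17 (-0.13 ± 0.20) and EIF4ENIF1, which binds the cap factor eIF4E (-0.47 ± 0.23), missed the threshold in the authors' deposited table.

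In the 6 genes of chromatin, transcription and DNA topology, SMARCB1 and ASCC2 fell. SMARCB1, a core subunit of the SWI/SNF remodelling complex and a tumour suppressor, went from 487 to 307, or -0.67 ± 0.11 (adjusted p = 9.29e-08), in the authors' deposited table. ASCC2, of the ASC-1 complex that rescues stalled ribosomes and assists DNA repair, stood at -0.48 ± 0.11 in the authors' deposited table. POLR2F, a subunit shared by the nuclear RNA polymerases, stood above 0 without passing (0.18 ± 0.10, adjusted p = 0.197), going by the authors' deposited table. THAP7 (-0.20 ± 0.17) and HMGXB4 (-0.27 ± 0.22) did not pass, and TOP3B had a mean count of only 1.22, in the authors' deposited table.

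Signalling and growth-control genes had the lowest median count of the role groups, at 50.5 over the 10 listed, and 4 of the 9 tested lay under 50. Their median SE was 0.25, against 0.08 for the translation genes. Of 9 tested, 1 rose, none fell and 8 missed the threshold by the authors' deposited table, at a median of -0.09. NF2 encodes merlin, which acts upstream of the Hippo kinases and restrains YAP, and it was the gene that rose, from 400 to 531, or 0.41 ± 0.10 (adjusted p = 0.000489; the call was lost under the t distribution and under the 1.5-fold rule), in the authors' deposited table. YWHAH, a 14-3-3 adaptor, was measured well and stayed close to 0 at -0.05 ± 0.10 (95% interval -0.25 to 0.15) in the authors' deposited table. The adaptor gene CRKL (-0.21 ± 0.14), the RAS-degradation adaptor gene LZTR1 (-0.16 ± 0.25), the mTORC1 inhibitor gene DEPDC5 (-0.17 ± 0.26) and the phosphatase gene PPM1F (-0.09 ± 0.19) missed the threshold in the authors' deposited table. The WNT regulators ZNRF3, which removes Frizzled receptors, and KREMEN1, a receptor for Dickkopf, stood on opposite sides of 0 at -0.61 ± 0.28 and 0.50 ± 0.33 and missed the threshold in the authors' deposited table. BCR averaged 5.78 counts in the authors' deposited table and has related sequences on the same chromosome arm, so its value of 0.62 ± 0.74 is uncertain.

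The cytoskeleton group held the gene of highest count among those that rose. MYH9, the heavy chain of non-muscle myosin IIA, went from 5144 to 7189, or 0.48 ± 0.06 (adjusted p = 1.71e-15), in the authors' deposited table. Against it, CDC42EP1, an effector of the GTPase CDC42, fell from 1607 to 1117, or -0.52 ± 0.07 (adjusted p = 2.41e-11), in the authors' deposited table. In addition, the actin-bundling protein gene TRIOBP (-0.51 ± 0.14) and the dynein light chain gene DNAL4 (-0.29 ± 0.10) fell, while SPECC1L (-0.20 ± 0.15) and SFI1 (-0.17 ± 0.22) missed the threshold in the authors' deposited table.

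Of 10 genes of membrane lipids and vesicle traffic, 3 fell and 2 rose in the authors' deposited table. AP1B1, the large beta subunit of the clathrin adaptor AP-1 that sorts cargo at the trans-Golgi network, went from 1185 to 649, or -0.87 ± 0.08 (adjusted p = 2.48e-25), in the authors' deposited table. MICALL1 of endosomal recycling went from 728 to 485, or -0.59 ± 0.09, and the Rab GTPase activator gene TBC1D10A stood at -0.43 ± 0.15, in the authors' deposited table. The endosomal adaptor gene TOM1 rose from 245 to 338, or 0.46 ± 0.12 (adjusted p = 0.000581), in the authors' deposited table. SEC14L2, a lipid-binding protein, rose from 127 to 177, or 0.48 ± 0.15 (adjusted p = 0.00876), in the authors' deposited table. PI4KA, MTMR3, SNAP29, PICK1 and HPS4 did not pass, with values from -0.89 (HPS4) to 0.08 (SNAP29) in the authors' deposited table.

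Of the 6 mitochondrial genes, TST, MPST and TOMM22 fell. TOMM22, a receptor of the import pore of the outer membrane, went from 1705 to 1092, or -0.64 ± 0.08 (adjusted p = 5.70e-16), in the authors' deposited table. TXN2, which encodes the mitochondrial thioredoxin, did not pass, at -0.23 ± 0.10 (adjusted p = 0.0594), going by the authors' deposited table. HSCB, a cochaperone of iron-sulfur cluster assembly (-0.43 ± 0.20), and PISD, which makes phosphatidylethanolamine (0.08 ± 0.12), missed the threshold in the authors' deposited table.

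In the group of secretory, surface and secreted products, MIF, DDT, SDF2L1 and TPST2 fell and LGALS1 rose. LGALS1 encodes galectin-1, a secreted sugar-binding protein, and went from 1293 to 1798, or 0.48 ± 0.08 (adjusted p = 1.96e-08), in the authors' deposited table. SDF2L1, an endoplasmic reticulum protein, stood at -0.45 ± 0.11 and the tyrosine sulfotransferase gene TPST2 at -1.10 ± 0.30, in the authors' deposited table. FOXRED2, of protein degradation from the endoplasmic reticulum, did not pass (-0.17 ± 0.18), and GGT1 averaged 1.56 counts in the authors' deposited table. In the remaining 3 genes, TMEM184B fell from 1359 to 877, or -0.63 ± 0.07 (adjusted p = 7.10e-17), and FBXO7, a ubiquitin ligase subunit, from 654 to 503, or -0.38 ± 0.09 (adjusted p = 0.000172), in the authors' deposited table. CCDC117 (-0.39 ± 0.36) missed the threshold in the authors' deposited table.

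**Figure D3:**
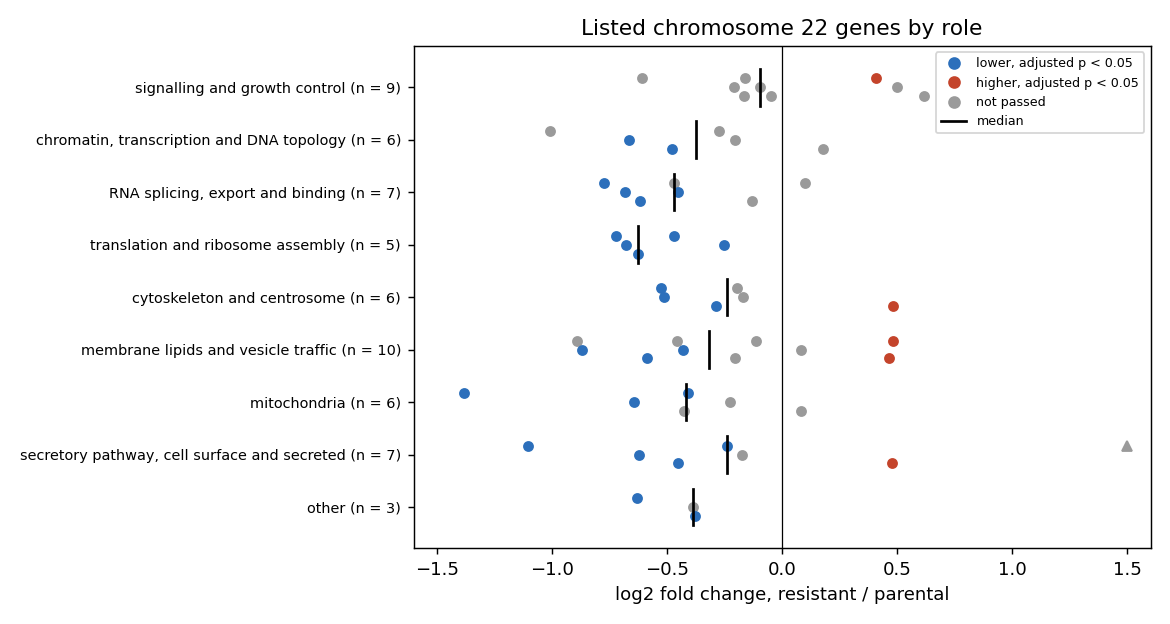
Log2 fold changes of the 59 tested genes by role, with the median of each group as a vertical line. The 5 translation genes all lie below 0 and were called, whereas in signalling only NF2 was called; GGT1 is beyond the axis and drawn as a triangle.

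The 5 genes that rose were interspersed with genes that fell. LGALS1 lies from base 37675608, next to NOL12 from base 37681673, and their 95% intervals lay on opposite sides of 0, from 0.32 to 0.63 for LGALS1 and from -0.80 to -0.45 for NOL12. NF2 stood between THOC5 and ASCC2 among the listed genes, both of which fell. MYH9 was followed along the chromosome by TXN2, FOXRED2 and then EIF3D, of which EIF3D fell. Starts were next taken as the outer ends of protein-coding genes in GENCODE 29, and genes of other types, such as THAP7-AS1, were not paired. By these, 11 listed genes start within 1000 bases of one that runs the other way, in 9 pairs. An outer end can lie away from a RefSeq start: that of PES1 is base 30607083, while its window printed below spans bases 30591861 to 30592160. In the 7 pairs with at least 1 called gene both genes lay below 0, and in 3 of them both were called. Of the 70 called genes of the stretch 63 fell, so the side of 1 gene per such pair was nearly set by the choice. No conclusion is drawn from these pairs. In the other 2 pairs, PI4KA with SNAP29 and SF3A1 with CCDC157, the estimates stood on opposite sides of 0 and no gene passed, in the authors' deposited table. Of all 164 tested genes of the stretch, 77.4% lay below 0 in the authors' deposited table. GUCD1 (-0.40 ± 0.11) and SNRPD3 (-0.68 ± 0.17) both fell, as did ANKRD54 (-0.49 ± 0.12) and EIF3L, in the authors' deposited table.

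Genes of the listed stretch outside the 60 included larger changes. The 3 largest among those called at a mean count of 50 or more were all falls: TIMP3, an inhibitor of matrix metalloproteinases, from 907 to 199 (-2.19 ± 0.10), OSBP2, a lipid-binding protein gene, from 130 to 36.6 (-1.83 ± 0.22), and CHCHD10, a mitochondrial protein gene, from 3711 to 1543 (-1.27 ± 0.06), in the authors' deposited table. Of the 60, TST alone among well-counted genes moved by as much as CHCHD10.

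Many of the 60 encode subunits of complexes whose other subunits are encoded elsewhere, so members and partners can be set side by side. For 21 members in 18 complexes or pathways, 125 partner genes were found in the table and 119 tested. GENCODE 29 placed them on other chromosomes, except 2 whose symbols it does not hold, TOMM70A and SQRDL. Of these partners 27 (22.7%) fell and 21 (17.6%) rose by the authors' deposited table, at a median of -0.01. Of the 21 members 11 fell and 2 rose, with a median of -0.46. Over all tested genes 14.8% were lower and 13.3% higher. Among genes at a mean count of 50 or more, 23.3% were lower and 18.2% higher, so the shares of the partners lay near these. In 16 of 21 cases the chromosome 22 gene stood below the median of its partners. Because the members were chosen with their fold changes known, this count describes that choice and carries no test. EIF3D and EIF3L share their partners, as do TST and MPST, and ZNRF3 and KREMEN1, so the 21 cases are not separate. The partners were listed with results of these data known and were not picked for their values, and no test was made of the difference.

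Of the 21 members, TST and AP1B1 lay farthest below the median of their partners, at differences of -1.38 and -1.01 on the log2 scale. At -0.87 AP1B1 lay below each of the 7 other AP-1 subunits, whose values ran from -0.30 to 0.47 in the authors' deposited table with 2 rises, AP1S3 (0.43 ± 0.13) being named here by rule. TOMM22 lay below all 6 tested TOM partners, which ran from -0.27 (TOMM5) to 0.45 (TOMM7) in the authors' deposited table. EIF3D lay below the 10 tested eIF3 partners, from -0.51 ± 0.41 (EIF3E, which averaged 19.1 counts) to 0.23 (EIF3I), in the authors' deposited table. Of these partners 3 fell and 1 rose. SNRPD3 lay below the 6 Sm partners, from -0.58 ± 0.13 (SNRPG) to 0.66 (SNRPE, which averaged 1.28 counts), in the authors' deposited table. ASCC2 stood at -0.48 beside ASC-1 partners from -0.07 to 0.18, none of which passed in the authors' deposited table. THOC5 (-0.62) lay below its 6 tested THO and TREX partners, of which none passed, going by the authors' deposited table. They ran from -0.54 ± 0.42 (THOC6, which averaged 18.2 counts) to 0.09. TST (-1.38) lay below its 3 tested partners, of which SQRDL (-1.25 ± 0.19) fell and CTH (1.44 ± 0.35) rose, in the authors' deposited table. SMARCB1 (-0.67) lay below 17 of its 18 SWI/SNF partners, of which 3 fell and 1 rose, and above ARID2 (-1.66 ± 1.24, which averaged 2.28 counts), in the authors' deposited table. These are ranks of estimates. Within 1 SE on each side, EIF3D overlapped EIF3E, SNRPD3 overlapped SNRPG and SNRPE, THOC5 overlapped THOC1 and THOC6, and TST overlapped SQRDL. SMARCB1 likewise overlapped DPF2 (-0.57 ± 0.12), SMARCC2, ARID1B and ARID2, so these members are not set apart from every partner. With 95% intervals more pairs overlapped, among them EIF3D with EIF3M, AP1B1 with AP1G1 (-0.30 ± 0.33) and ASCC2 with each of its ASC-1 partners. At that level AP1B1 and ASCC2 are not set apart from every partner either.

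Of the other called members, EIF3L, PES1, MPST and NF2 lay inside the range of their partners. PES1 (-0.68) stood close to its PeBoW partner BOP1 (-0.84 ± 0.08, adjusted p = 2.71e-25), which also fell, in the authors' deposited table. MYH9 rose together with all 5 tested partners of non-muscle myosin II in the authors' deposited table, whose median was 0.82, above its own 0.48. MYL9, the partner with the largest rise, had a fitted parental count under 1, so its fold is not given. SF3A1, POLR2F and DEPDC5 lay above the medians of their partners, and so did KREMEN1 and NF2, in the authors' deposited table. Of 9 Hippo partners of NF2, WWC1 (1.08 ± 0.20) was the largest of 3 rises and MOB1A (-0.54 ± 0.15) the 1 fall in the authors' deposited table.

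**Figure D4:**
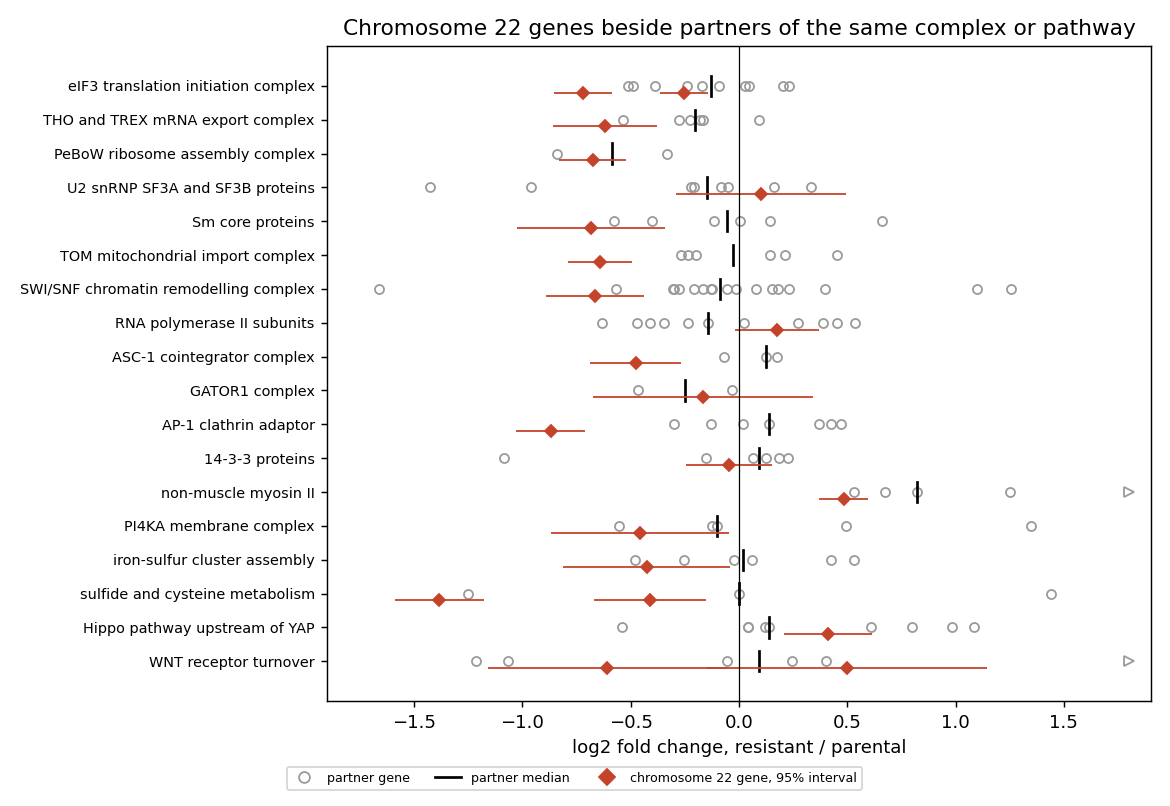
Log2 fold changes of 21 chromosome 22 genes (red diamonds, 95% intervals) beside partners of the same complex or pathway (open circles) and the partner median (bar). By estimate, AP1B1, TOMM22 and EIF3D lie left of all their partners, and MYH9 lies above 0 but left of its 5 tested partners; 2 partners beyond 1.8 are drawn as triangles at the axis.

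Promoter sequence is shown for the 3 members of highest count among the 8 largest falls and the 2 of highest count among the rises, as far as RefSeq windows on GRCh38.p14 were at hand. Each window has 300 bases, from 250 before to 50 after the start, and 53 of the 60 genes had at least 1 window, 75 in all. Capitals mark matches, on either strand, to 5 motifs. A further motif, that of NRF1, was searched at first and left out after its counts were seen. The SP1 motif was searched as GGGCGG. The ETS motif was searched as CCGGAAG. Motifs of the AP-1 transcription factor were searched as TGANTCA, with N for any base. Those of TEAD factors were searched as GGAATG. The TATA box was searched as TATAAA.

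EIF3D, chr22:36529117-36529416, reverse strand: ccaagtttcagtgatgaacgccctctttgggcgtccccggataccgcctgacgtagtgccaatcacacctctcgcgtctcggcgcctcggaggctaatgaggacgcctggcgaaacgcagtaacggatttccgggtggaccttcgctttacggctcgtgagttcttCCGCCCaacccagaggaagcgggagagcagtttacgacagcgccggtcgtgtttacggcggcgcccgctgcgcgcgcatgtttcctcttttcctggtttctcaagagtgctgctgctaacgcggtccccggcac

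TOMM22, chr22:38681707-38682006, forward strand: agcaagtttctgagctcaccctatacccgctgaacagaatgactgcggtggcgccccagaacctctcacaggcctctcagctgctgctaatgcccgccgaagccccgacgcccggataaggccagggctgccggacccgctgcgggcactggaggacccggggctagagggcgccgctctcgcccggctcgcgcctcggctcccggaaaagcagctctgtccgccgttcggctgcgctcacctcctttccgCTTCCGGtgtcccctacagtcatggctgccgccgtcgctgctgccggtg

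PES1, chr22:30591861-30592160, reverse strand: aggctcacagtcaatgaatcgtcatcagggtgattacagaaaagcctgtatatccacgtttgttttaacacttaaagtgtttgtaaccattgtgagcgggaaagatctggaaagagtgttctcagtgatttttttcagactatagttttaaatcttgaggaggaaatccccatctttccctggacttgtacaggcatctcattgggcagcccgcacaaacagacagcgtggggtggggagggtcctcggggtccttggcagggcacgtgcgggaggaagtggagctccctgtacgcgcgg

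MYH9, chr22:36387918-36388217, reverse strand: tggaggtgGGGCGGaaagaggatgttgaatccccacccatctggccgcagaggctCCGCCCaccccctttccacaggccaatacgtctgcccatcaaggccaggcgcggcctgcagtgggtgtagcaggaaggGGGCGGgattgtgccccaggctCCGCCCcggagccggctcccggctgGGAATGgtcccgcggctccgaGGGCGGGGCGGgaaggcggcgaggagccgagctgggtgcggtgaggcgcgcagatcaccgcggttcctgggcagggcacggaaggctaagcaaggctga

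NF2, chr22:29603306-29603605, forward strand: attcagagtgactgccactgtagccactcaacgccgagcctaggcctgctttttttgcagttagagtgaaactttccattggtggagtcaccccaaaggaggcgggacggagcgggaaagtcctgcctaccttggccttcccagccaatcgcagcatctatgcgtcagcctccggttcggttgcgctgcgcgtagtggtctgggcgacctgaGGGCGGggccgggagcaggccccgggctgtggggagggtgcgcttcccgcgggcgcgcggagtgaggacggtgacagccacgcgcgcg

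GGGCGG was found 6 times in the MYH9 window, with some matches overlapping, and 1 time each in those of EIF3D and NF2. CCGGAAG was found 1 time, in the TOMM22 window, and GGAATG 1 time, in that of MYH9, while the PES1 window held none of the 5 motifs. Of all 35116 windows, 45.0% held GGGCGG, 10.3% CCGGAAG and 14.03% GGAATG, and of the 75 member windows 53 held GGGCGG, 15 CCGGAAG and 4 GGAATG. The AP-1 motif occurred in 7.71% of all windows and 4 member windows, and the TATA box in 11.5% and 3. The median GC content was 66.7% in the member windows and 58.7% in all windows. These matches are a description of letters in a window, and no factor was measured.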

How the data were processed

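Polyadenylated RNA of 6 PC9 samples, 3 parental and 3 resistant, was made into libraries by a modified TranSeq protocol with MARS-seq barcoded primers, a 3′-end method, per the labels' protocols. The submitters' processing notes name GRCh38 (hg38) and the tools STAR, HTSeq, cutadapt and DESeq2; versions, barcode collapsing and strand are not given in the sources used here. The file is the authors' table of their own comparison. Its columns, per the file headers, are the normalized count as a mean (a signal over all libraries), a log2 fold change with its standard error, the Wald statistic (a score equal to their quotient) and a p-value with its adjusted value. Per the file headers the direction of the fold is not stated; it is read as resistant over parental, as the design sets the groups. Values per library were not analysed here, so the count test planned for per-library counts, fits without a replicate and intervals for counting error were not made. Calls are those of the authors' two-sided Wald test of DESeq2 with Benjamini-Hochberg adjustment over 13494 genes, at 0.05. Recomputing that adjustment gave the deposited values within 1.61e-15. The labels number replicates but do not say they were separate cultures, so the p-values reflect sample-to-sample spread only, and that spread may be technical.

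The 60 genes, the role groups and the partner lists were chosen with earlier results of these data known. Genes named with full values are the 8 largest falls and the largest rises among called members at a mean count of 50 or more, and the 2 of highest count per role; others are named under their role, as complex partners with the largest called rise or fall, as nearest genes outside the stretch, or as the 3 largest called changes inside it. Fitted group means follow from the mean count and the fold, taking 3 libraries per group. Size factors were read from 6 recurring means that stand for 1 read in 1 library. Positions came from GENCODE 29 by symbol, for 93.7% of tested genes. Coding sequences of TST and MPST were aligned globally (match 1, mismatch -1, gap opening -5, extension -1) with Biopython 1.88. Other work used Python 3.11.15, pandas 2.3.3 and SciPy 1.17.1, and recomputed adjustments were tested on simulated data. The alternatives were centring, 2 other gene sets for adjustment, stricter thresholds and a t distribution with 4 degrees of freedom.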

Additional observations from a re-analysis of the deposited data

How the results depend on the processing

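The count of members that fell (26) stayed within 1.5 times, from 23 to 26, and the count that rose stayed at 5, after centring on the median of well-expressed genes (-0.03), with p adjusted over every gene with a p-value, over genes with a mean count of 50 or more, or at an adjusted p of 0.01. Starting the list at 22 Mb, chosen after seeing the data, gave 25 and 5. A fold of at least 1.5 left 14 lower and 0 higher, with 8.61% and 8.77% of all tested genes, and a t distribution with 4 degrees of freedom left 9 lower and 1 higher, while it left 3.88% of all tested genes lower and 2.81% higher. Both rules are stricter than the deposited call. The median log2 fold ran from -0.39 to -0.35 under centring, a floor of 1 on group means, a minimum count of 50 and the start at 22 Mb, and was -0.41 over all 164 tested genes of the stretch, of which 38.4% fell against 44.1% of the list. Of 24 members named with full values, 21 were called as deposited, and none reversed under the 6 alternatives. The fold rule lost 9 of the 21 calls (SEC14L2, MYH9, LGALS1, TOM1, NF2, EIF3L, CDC42EP1, EWSR1 and FBXO7). The t distribution lost 12 (TFIP11, SNRPD3, SMARCB1, SEC14L2, LGALS1, TOM1, NF2, EIF3L, EWSR1, MICALL1, FBXO7 and THOC5). TXN2 was gained with genes under a count of 50 left out. No paired analysis was possible because the table holds no values per library; for the same reason the fits without each replicate and the count test by another tool were not run. Depth limits the 11 tested members under a mean count of 50.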
